A study of Mus musculus with 156 samples.

Results

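A set of 33 genes of oligodendrocytes, the cells that wrap axons of the central nervous system in myelin, were followed in the striatum of mice given 1 of 9 psychotropic drugs. The 33 genes were taken by name, with earlier results of these data known. Each was read from its brightest probe, the one with the highest mean over all arrays. A probe was found for 32 of the 33 genes, out of 19057 genes named on the array and 45279 probes tested in all, and *Enpp2* was not analysed here. In the sentences below a change is the log2 signal of the drug arrays minus that of the vehicle arrays of the same time, so that -1 is a halving.

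The mice were male C57BL/6J animals, given in the labels as 6 to 10 weeks old, and each array carried striatal RNA pooled from a pair of mice, so that one animal's level cannot be read. Each mouse had one intraperitoneal injection and was killed 1, 2, 4 or 8 h later, with 3 arrays for each drug and time. The doses were 20 mg/kg of tranylcypromine, 20 mg/kg of mianserin, 20 mg/kg of bupropion, 0.5 mg/kg of risperidone, 1 mg/kg of haloperidol, 3 mg/kg of clozapine, 5 mg/kg of diazepam, 10 mg/kg of buspirone and 10 mg/kg of hydroxizine. The first 3 are antidepressants, the next 3 are antipsychotics and the last 3 are anxiolytics. Control mice had saline or Tween 80, the medium in which risperidone, haloperidol, clozapine and diazepam were suspended, or were naive, with no injection. The drugs of the first 2 classes, with naive, saline and Tween 80 mice, filled 36 groups on 18 chips (chip set 1), and the anxiolytics with saline mice of their own filled 16 groups on 8 chips (chip set 2). Each drug was compared with vehicle of its own chip set, 6 arrays at each time in chip set 1 (saline and Tween 80 together) and 3 in chip set 2, whose vehicle was saline alone for diazepam too.

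In the mature oligodendrocyte a small set of very abundant membrane proteins packs the myelin sheath, enzymes make its galactolipids, and the transcription factors SOX10 and MYRF switch these genes on, with OLIG1 and OLIG2 acting earlier in the lineage. Precursor cells, which divide throughout adult life, carry PDGFRA and the proteoglycan encoded by *Cspg4*. In the striatum, oligodendrocytes lie in the fibre bundles that cross the tissue and among its medium spiny neurons. Genes of medium spiny neurons were bright on these arrays, among them *Ppp1r1b* (mean log2 signal 15.19, brighter than 99.8% of probes) and *Drd1* (12.99), while the 7 listed genes of cortical excitatory neurons ran from *Neurod6* (7.84), below the median probe mean of 8.03, to *Slc17a7* (11.74), with 5 of them above that median. Deposited signals had array medians from 6.92 to 9.21 before normalization, and arrays of one group correlated at 0.947 or higher.

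The members ranged from *Ermn*, brighter than 34.2% of probes, to the brightest probes of the array. *Mbp*, the major basic protein of compact myelin, had a mean of 15.95 ± 0.06 (SD, n = 24) over the vehicle arrays of chip set 1, where the highest signal of any probe was 16.05. *Cldn11*, the claudin of myelin tight junctions, stood at 15.32 ± 0.15 and *Bcas1*, a gene of newly myelinating cells, at 15.04 ± 0.16 (SD, n = 24). *Opalin*, a transmembrane protein of the oligodendrocyte loops, had 11.89 ± 0.20 and *Pllp*, plasmolipin, a tetraspan protein of myelin, 10.72 ± 0.20 (SD, n = 24). At the other end 6 members had mean signals within 0.5 of the median probe, among them *Ermn* (7.81 ± 0.14), *Myrf* (8.00 ± 0.10), *Gjb1* (8.19 ± 0.19) and *Olig2* (8.12 ± 0.14; SD, n = 24 for each). The spread between arrays of one group had a median of 0.186 over the members in chip set 1, against 0.142 over all probes.

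The upstream sequences of 4 of the genes described below are given because these genes changed after different drugs and because 2 of them carry the letters bound by SOX factors. They come from RefSeq with build GRCm38.p6, run from 5′ to 3′ on the strand of the gene over 300 bases around the annotated start, and show in capitals each match to AACAAT or ACAAAG on either strand. *Opalin* lies on chr19:41077064-41077363, minus strand, *Pllp* on chr8:94696193-94696492, minus strand, *Aspa* on chr11:73324588-73324887, minus strand, and *Ugt8a* on chr3:125938603-125938902, minus strand.
Opalin: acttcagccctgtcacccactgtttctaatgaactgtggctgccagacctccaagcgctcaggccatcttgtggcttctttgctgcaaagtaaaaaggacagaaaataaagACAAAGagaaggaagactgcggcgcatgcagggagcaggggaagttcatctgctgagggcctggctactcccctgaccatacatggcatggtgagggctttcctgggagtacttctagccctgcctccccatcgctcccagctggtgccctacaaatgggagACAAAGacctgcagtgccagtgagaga
Pllp: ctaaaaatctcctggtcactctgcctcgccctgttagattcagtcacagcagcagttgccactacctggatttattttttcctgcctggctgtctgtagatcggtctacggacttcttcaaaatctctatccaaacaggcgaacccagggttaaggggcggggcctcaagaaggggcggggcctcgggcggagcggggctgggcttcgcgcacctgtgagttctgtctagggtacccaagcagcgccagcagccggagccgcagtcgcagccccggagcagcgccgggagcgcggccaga
Aspa: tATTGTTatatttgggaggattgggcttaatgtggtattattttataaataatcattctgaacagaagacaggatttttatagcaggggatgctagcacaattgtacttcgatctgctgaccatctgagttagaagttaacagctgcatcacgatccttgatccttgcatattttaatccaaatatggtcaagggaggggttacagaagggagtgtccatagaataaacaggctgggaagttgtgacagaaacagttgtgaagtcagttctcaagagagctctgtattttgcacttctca
Ugt8a: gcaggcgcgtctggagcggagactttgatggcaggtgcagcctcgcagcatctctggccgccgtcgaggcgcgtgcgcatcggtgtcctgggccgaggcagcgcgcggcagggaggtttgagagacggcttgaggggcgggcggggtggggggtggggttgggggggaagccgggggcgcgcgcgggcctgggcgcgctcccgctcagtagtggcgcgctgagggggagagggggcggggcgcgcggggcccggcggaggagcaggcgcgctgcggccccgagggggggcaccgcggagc
*Opalin* had 2 matches, *Aspa* 1, and *Pllp* and *Ugt8a* 0. Of the members, 23 had an upstream sequence in the table, and 9 of these (39.1%) held a SOX match, against 27% of all 32851 sequences of the same length. The letters CTGGNAC, bound by MYRF and searched on both strands apart from the SOX letters, with which they may overlap, were found in 6 members (26.1%), *Opalin* among them, against 19.3% of all sequences.

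Called changes of the members, read from their brightest probes, were few, and at their largest they were falls. Over the 4 times together, limma's moderated F test with Benjamini-Hochberg adjustment over all probes called 5 of 32 members after tranylcypromine, 4 after mianserin, 1 after risperidone and 0 after the other 6 drugs. The matching shares of all probes were 1.59% for tranylcypromine, 3.26% for mianserin and 1.22% for risperidone, and the members' shares were 15.6%, 12.5% and 3.12%. The 5 after tranylcypromine became 1 without tranylcypromine replicate 2, 2 without saline replicate 2, and 3 without saline replicate 3 or Tween 80 replicate 1. The 4 after mianserin became 2 without mianserin replicate 3. Fits that moved a count by no more than a ratio of 1.5 are not listed here, so these counts were not fixed in the other fits. Arrays of one chip deviated together (mean correlation over all probes 0.235), and with the chip as a fixed block the counts were 3 after tranylcypromine, 4 after mianserin and 4 after risperidone. With the chip as a random block the count after risperidone was 3, and with the replicate number as a block 2. For each of the 10 calls, the largest change of the gene over the 4 times was a fall. The tests of single times called 11 member changes in 36 comparisons, and all 11 were falls. In whole tissue, fewer oligodendrocytes and less RNA per oligodendrocyte cannot be told apart.

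**Figure D1:**
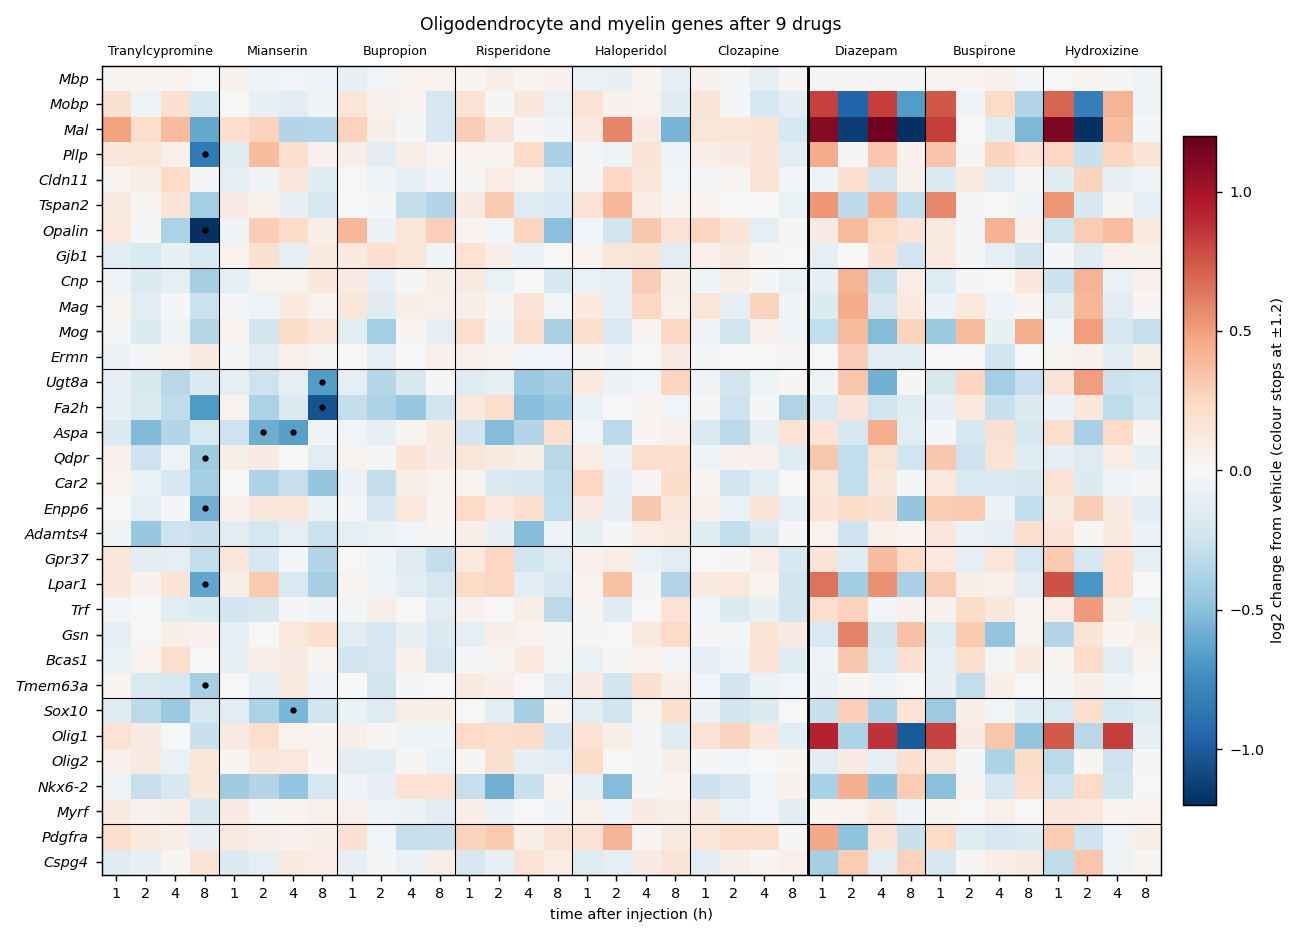
Log2 change from vehicle (colour) of the 32 measured members (rows, lines part the roles) at 1, 2, 4 and 8 h after each of 9 drugs (columns). Black dots mark the 11 changes with an adjusted p under 0.05 at that time; the thick line parts chip set 1 from chip set 2, where *Mal*, *Mobp*, *Olig1* and *Lpar1* swing most and carry no dot.

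All single-time calls after tranylcypromine, an inhibitor of monoamine oxidase, came at 8 h. At that time 6 of 32 members (18.8%) were lower than in vehicle mice by limma's adjusted test, against 0.448% of all probes, and 0 were higher, against 1.08% of all probes. The 6 were *Opalin*, *Pllp*, *Enpp6*, *Lpar1*, *Qdpr* and *Tmem63a*. The median change of the 32 members was -0.24 at 8 h, with 27 of them below 0, while the median of all probes was 0.00. The 3 arrays were not alike in this: the members lay on average -0.34 and -0.35 from the vehicle mean in replicates 1 and 2, with 27 and 25 of 32 below it, and -0.15 in replicate 3, with 17 below. Single vehicle arrays of 8 h had 12 to 17 members below and means from -0.04 to 0.03. Some vehicle arrays of other times lay farther from the vehicle mean of their own time. Tween 80 replicate 2 at 2 h had 27 members below and a mean of -0.13. At 1, 2 and 4 h after tranylcypromine the members' medians were 0.02, -0.07 and -0.03 and no member was called, with 1, 4 and 4 members under an unadjusted p of 0.05 beside 6.34%, 6.87% and 6.12% of all probes. The probes called lower at those times were 0.00663%, 0.00883% and 0.0464% of all. In 8 members all 3 tranylcypromine arrays lay below all 6 vehicle arrays at 8 h, a pattern held by 2.91% of all probes, and no member showed the reverse. The count of 6 was 3 without tranylcypromine replicate 1, tranylcypromine replicate 2 or saline replicate 1. Smaller moves, within a ratio of 1.5, are not listed for this count. With the chip as a fixed block it was 3, with *Opalin* (-1.32) and *Pllp* (-0.90) still called and *Enpp6* (-0.57), *Lpar1* (-0.46), *Qdpr* (-0.43) and *Tmem63a* (-0.40) not.

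*Opalin* had the largest change of the members. The fall of this gene was known from an earlier analysis of these data, so its test is not an independent one. Its log2 signal was 10.84, 10.25 and 10.93 in the 3 tranylcypromine arrays at 8 h, and 12.02, 11.88, 11.98, 11.84, 11.91 and 12.01 in the 6 vehicle arrays. All 3 drug arrays were low, the highest of them well under the lowest vehicle array, and the vehicle arrays lay close together. The change was -1.26 (SE 0.18), a signal of 41.6% of vehicle (adjusted p = 6.33e-07 by limma). One of the 3 arrays, replicate 2, was lower than the other two, and without it the change was -1.05. The changes at 1, 2 and 4 h were 0.12, -0.02 and -0.38 (SE 0.18), none of them called.

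*Pllp* too was lower at 8 h. Its signal at 8 h was 10.33, 9.77 and 10.23 after tranylcypromine against 10.82, 10.87, 11.02, 11.15, 10.89 and 11.04 in vehicle mice, and the groups did not overlap. The change was -0.85 (SE 0.14), to 55.4% of vehicle (adjusted p = 3.27e-05), and without replicate 2 it was -0.68, past the threshold at 8 h though not over the 4 times together. At 1, 2 and 4 h its changes were 0.13, 0.15 and 0.06 (SE 0.14). A test that the change was equal at all 4 times was rejected for *Opalin* (adjusted p = 0.00208) and *Pllp* (adjusted p = 0.00238), the 2 members among the 0.395% of all probes for which it was; without tranylcypromine replicate 2 this count was 0.

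**Figure D2:**
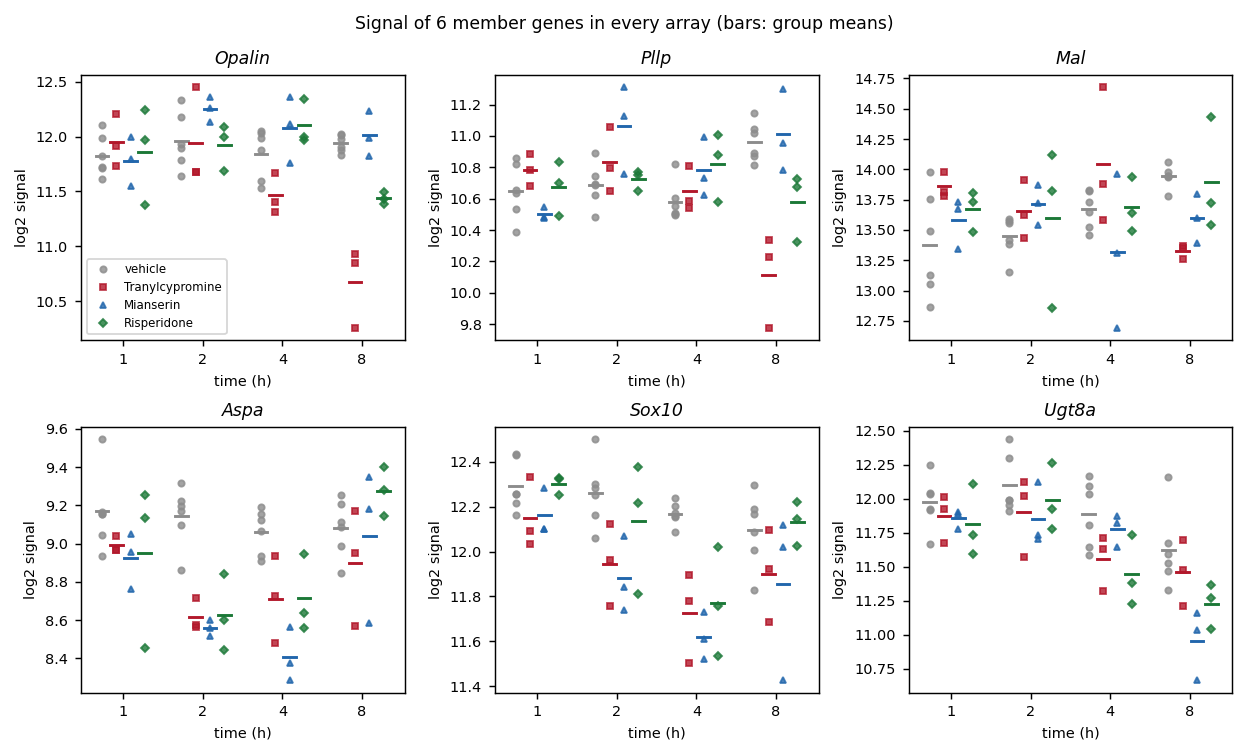
Log2 signal (vertical axis) of *Opalin*, *Pllp*, *Mal*, *Aspa*, *Sox10* and *Ugt8a* on every array of vehicle (6 a time), tranylcypromine, mianserin and risperidone (3 a time) mice at 1, 2, 4 and 8 h, with bars at group means. At 8 h the 3 tranylcypromine arrays lie at 10.25 to 10.93 for *Opalin* and 9.77 to 10.33 for *Pllp*, whereas *Aspa* is low at 2 h after all 3 drugs, below 8.86.

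Enzymes, a receptor and a channel made up the other 4 members called at 8 h. *Enpp6*, the choline phosphodiesterase of newly formed oligodendrocytes, read 9.74, 9.61 and 9.97 after tranylcypromine, and the 6 vehicle arrays ran from 10.18 to 10.74 with a median of 10.25. All 3 drug arrays were lower than the vehicle arrays, by -0.58 on average (SE 0.13; adjusted p = 0.00547), and the call was lost without tranylcypromine replicate 2, at -0.49. *Lpar1*, a receptor for lysophosphatidic acid, read 10.79, 11.07 and 10.75 against 11.19 to 11.76 (vehicle median 11.51), a change of -0.62 (SE 0.16; adjusted p = 0.0181). Its call was lost without tranylcypromine replicate 1, tranylcypromine replicate 3 or saline replicate 1, with changes of -0.58, -0.56 and -0.56. *Qdpr*, dihydropteridine reductase, which regenerates the cofactor of monoamine synthesis, read 12.45, 12.17 and 12.50 against 12.65 to 12.88 (vehicle median 12.82) and changed by -0.42 (SE 0.12; adjusted p = 0.0436). *Tmem63a*, a stretch-activated channel, read 10.48, 10.04 and 10.67 against 10.68 to 10.88 (vehicle median 10.82) and changed by -0.39 (SE 0.11; adjusted p = 0.0469). For both the threshold was passed narrowly, and 7 of 9 fits that left out 1 replicate lost it; without tranylcypromine replicate 2 the changes were -0.32 and -0.22. *Fa2h*, which hydroxylates the fatty acids of myelin lipids, read 11.18, 11.99 and 12.24 against 12.29 to 12.63 and was not called (-0.68, SE 0.27; adjusted p = 0.234).

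*Mal*, a proteolipid of compact myelin, was called over the 4 times (adjusted p = 0.0446) with changes of 0.48, 0.21, 0.38 and -0.62 (SE 0.19). At 8 h its arrays read 13.35, 13.37 and 13.26, below the vehicle range of 13.78 to 14.06, but that time alone missed the threshold (adjusted p = 0.0862). The call was lost in 8 of the 9 fits without 1 replicate, the exception being the one without Tween 80 replicate 3, and with the chip as a fixed block the change was -0.28. The other probes of the gene changed by 0.14 and 0.00 at 8 h (SE 0.17 and 0.08), so 1 of 3 probes read lower than vehicle. For *Lpar1* and *Tmem63a* the second probe moved the same way as the first, by -0.54 (SE 0.18) and -0.50 (SE 0.13), and neither was called over the 4 times, like the first probes. The second probe of *Enpp6*, near the median probe at a mean of 7.78, changed by -0.13.

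The abundant structural genes were not called. *Mbp* read 15.81, 16.01 and 16.03 at 8 h after tranylcypromine and 15.82 to 16.04 in vehicle mice, a change of -0.01 with a 95% interval from -0.14 to 0.12. *Cldn11* changed by -0.02 (95% interval -0.28 to 0.23) and *Bcas1* by -0.00 (95% interval -0.23 to 0.22). In chip set 1 as a whole *Mbp* ranged from 15.61 to 16.05 and *Bcas1* from 14.66 to 15.45. The highest signal of any probe was also 16.05, so a rise of *Mbp* could hardly be read. Whether its changes were compressed at the top of the scale was not tested. *Mag*, the adhesion molecule of the inner wrap, changed by -0.26 (95% interval -0.47 to -0.05; adjusted p = 0.229), *Cnp*, the cyclic nucleotide phosphodiesterase of non-compact myelin, by -0.39 (95% interval -0.71 to -0.08; adjusted p = 0.231) and *Mog*, on the outermost lamella, by -0.34 (95% interval -0.75 to 0.06). *Mobp*, *Tspan2*, *Gjb1*, *Trf*, *Adamts4*, *Gpr37* and *Car2* had changes between -0.41 and -0.17, none called. *Ugt8a* and *Aspa* changed by -0.16 and -0.19, and *Gsn* and *Ermn* by 0.05 and 0.12. A dimmer probe of *Mbp* (mean 10.97) went the other way: it was called over the 4 times after tranylcypromine, at 0.44 at 8 h (SE 0.11; adjusted p = 0.00551), and after risperidone, at 0.52 at 4 h (adjusted p = 0.0113). The remaining 3 probes of the gene were not called, and probes of one gene can read different transcripts.

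**Figure D3:**
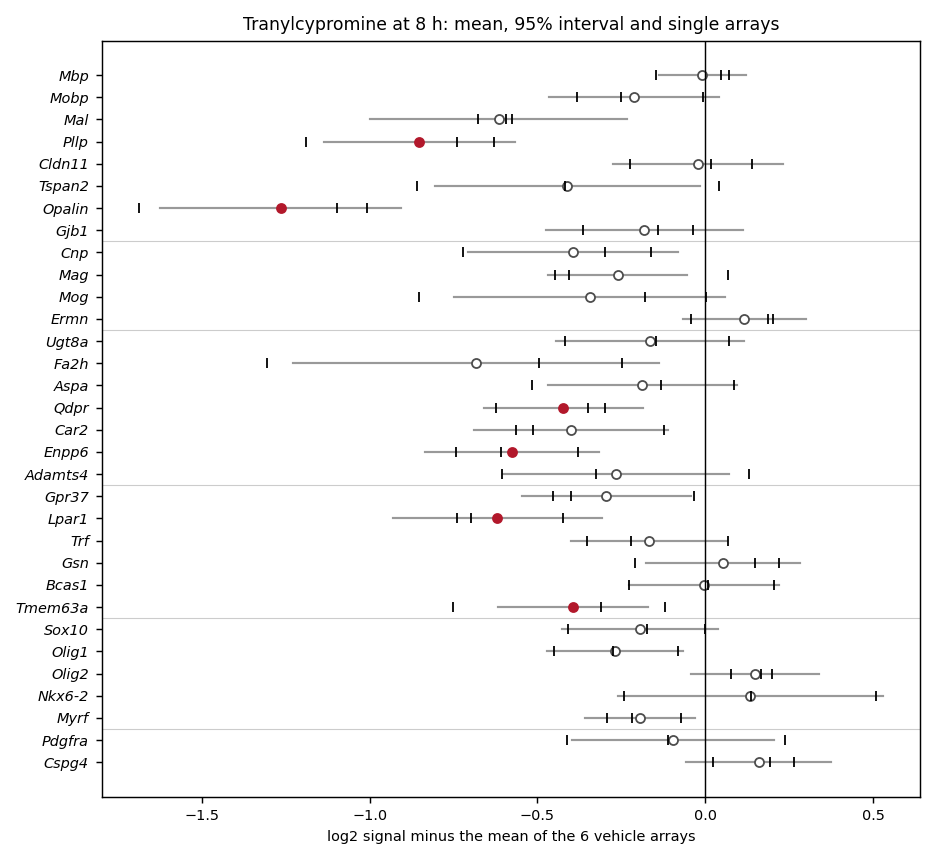
Change at 8 h after tranylcypromine (horizontal axis, log2 signal minus the mean of 6 vehicle arrays) for the 32 measured members in order of role. Circles are means, filled where the adjusted p is under 0.05, grey lines are 95% intervals and ticks are the 3 arrays; *Opalin* at -1.26 and *Pllp* at -0.85 stand farthest left, and *Mbp* lies at -0.01.

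Of the transcription factors, *Sox10*, the activator of myelin genes, was called over the 4 times after tranylcypromine (adjusted p = 0.0143). Its changes were -0.14, -0.31, -0.44 and -0.19 (SE 0.12) at 1, 2, 4 and 8 h. At 4 h the arrays read 11.89, 11.50 and 11.78, all below the vehicle arrays at 12.09 to 12.24, although the test of that time alone gave an adjusted p of 0.0608. Without tranylcypromine replicate 2 or saline replicate 2 the call over the 4 times was lost, with changes of -0.33 and -0.43. *Olig1*, *Olig2*, *Nkx6-2* and *Myrf* changed by -0.27, 0.15, 0.13 and -0.19 at 8 h, none called. The precursor markers *Pdgfra* and *Cspg4* changed by -0.10 (95% interval -0.40 to 0.20) and 0.16 (95% interval -0.06 to 0.38).

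*Aspa*, aspartoacylase, which splits N-acetylaspartate and so frees acetate for myelin lipids, was the one member called after 3 drugs. After mianserin, a blocker of serotonin and adrenergic receptors, its arrays at 4 h read 8.28, 8.56 and 8.38 against 8.91 to 9.19 in vehicle mice, with a vehicle median of 9.09. The change was -0.65 (SE 0.14; adjusted p = 0.00265), after -0.59 at 2 h (adjusted p = 0.0250) and before -0.05 at 8 h. After tranylcypromine at 2 h it read 8.71, 8.56 and 8.57 against 8.86 to 9.32, a change of -0.53 (SE 0.14), called over the 4 times (adjusted p = 0.0281). After risperidone at 2 h it read 8.84, 8.45 and 8.60, a change of -0.52 (SE 0.14), also called over the 4 times (adjusted p = 0.0302). At 2 h, all 9 arrays of these drugs lay below all vehicle arrays, and the 3 comparisons share those vehicle arrays. Against the same arrays *Aspa* also changed by -0.32 after haloperidol and -0.31 after clozapine at 2 h, neither called. After bupropion its largest change was 0.11, at 8 h. The calls after tranylcypromine and risperidone were lost in 5 and 6 of 9 fits without 1 replicate, with changes of -0.52 to -0.49 and of -0.51 to -0.43. Leaving out saline replicate 2, saline replicate 3 or Tween 80 replicate 1 lost both. Leaving out replicate 2 or 3 of either drug lost that drug's own call, and Tween 80 replicate 2 that of risperidone. With the chip as a fixed block the call after tranylcypromine was lost too (-0.46). The mianserin call over the 4 times was lost in none, while that at 2 h was kept in 2 of 9 fits, those without saline replicate 1 or Tween 80 replicate 3. The second probe of the gene, at a mean of 8.01, showed -0.12 with mianserin (4 h) and 0.05 with risperidone (2 h).

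After mianserin 4 further members were called. *Sox10* was lower at 4 h, with arrays at 11.61, 11.73 and 11.52 against 12.09 to 12.24 in vehicle mice, a change of -0.55 (SE 0.12; adjusted p = 0.00225). *Ugt8a*, the transferase that makes galactosylceramide, fell at 8 h, from 11.33 to 12.16 in vehicle mice (median 11.56) to 11.16, 11.04 and 10.66, a change of -0.67 (SE 0.14; adjusted p = 0.00210). *Fa2h* fell at the same time to 11.63, 11.79 and 10.89 from 12.29 to 12.63, a change of -1.05 (SE 0.27; adjusted p = 0.0266), though it was not called over the 4 times (adjusted p = 0.0803). *Car2*, carbonic anhydrase of the oligodendrocyte cytosol, changed by -0.37, -0.28 and -0.46 at 2, 4 and 8 h (SE 0.14) and was called over the 4 times (adjusted p = 0.0357), with 8 h arrays at 10.36, 10.24 and 10.30 against 10.40 to 11.22. Single-time calls after mianserin were thus 1 at 2 h, 2 at 4 h and 2 at 8 h, against 0.267%, 0.488% and 0.504% of all probes lower at those times. Without mianserin replicate 3 the *Ugt8a* calls were lost (-0.53) and so was that of *Fa2h* (-0.78); *Fa2h* lost it also without mianserin replicate 1, saline replicate 1 or saline replicate 3. The call of *Car2* was lost in 7 of 9 such fits, among them that without saline replicate 2 (-0.37). With the chip as a fixed block *Fa2h* at 8 h (-0.86) and *Ugt8a* over the 4 times (-0.61) were not called. With each array centred on its median in place of quantile normalization, *Sox10* at 4 h, *Fa2h* at 8 h and both *Ugt8a* results were not called. *Sox10* was still called over the 4 times in that setting. The second probe of *Ugt8a*, at a mean of 7.80, showed 0.03 at 8 h. *Opalin* and *Pllp* were not called after mianserin, at 0.08 (95% interval -0.28 to 0.43) and 0.05 (95% interval -0.24 to 0.33) at 8 h. A second probe of *Nkx6-2*, a homeobox factor of the lineage, was lower after mianserin over the 4 times, at -0.33, -0.33, -0.47 and -0.26 (SE 0.13; adjusted p = 0.00173), while its brightest probe, at -0.43, -0.35, -0.46 and -0.21 (SE 0.20), was not called.

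Drugs were compared directly at matched times, in 72 pairs within the chip sets, and 9 of the pairs held a called member, 20 calls in all. The share of all probes called in these pairs was 1.88%, 0.764%, 0.417% and 0.49% at 8 h for tranylcypromine against mianserin, bupropion, haloperidol and clozapine. It was 0.382%, 0.475% and 0.398% at 8 h for mianserin against bupropion, haloperidol and clozapine, and 1.04% and 0.51% at 4 h for mianserin against bupropion and haloperidol. At 8 h the signal of *Opalin* was lower after tranylcypromine than after mianserin by -1.34 (SE 0.21; adjusted p = 5.83e-06), than after bupropion by -1.55 (adjusted p = 5.27e-07), than after haloperidol by -1.43 (adjusted p = 6.09e-06) and than after clozapine by -1.28 (adjusted p = 3.97e-05). *Pllp* was lower in the same 4 pairs, by -0.90, -0.88, -0.80 and -0.71 (SE 0.17). Against risperidone the differences were -0.76 for *Opalin* (SE 0.21; adjusted p = 0.0700) and -0.47 for *Pllp* (SE 0.17; adjusted p = 0.271), neither called. *Ugt8a* at 8 h was lower after mianserin than after bupropion, haloperidol or clozapine, by -0.66, -0.93 and -0.69 (SE 0.16). *Aspa* and *Sox10* at 4 h were lower after mianserin than after bupropion, by -0.69 and -0.62, and than after haloperidol, by -0.66 and -0.58. P-values were adjusted over all probes within each pair.

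Risperidone at 8 h gave small differences from vehicle that did not pass. *Opalin* read 11.50, 11.43 and 11.38, below all 6 vehicle arrays (11.84 to 12.02), a change of -0.50 (SE 0.18; unadjusted p = 0.00648 and adjusted p = 1.00 by limma). *Pllp* read 10.32, 10.73 and 10.68 and changed by -0.39 (SE 0.14). The members' median was -0.13, with 25 of 32 below 0 and 8 under an unadjusted p of 0.05, beside 3.77% of all probes; at this time 0.00221% of all probes were called lower.

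**Figure D4:**
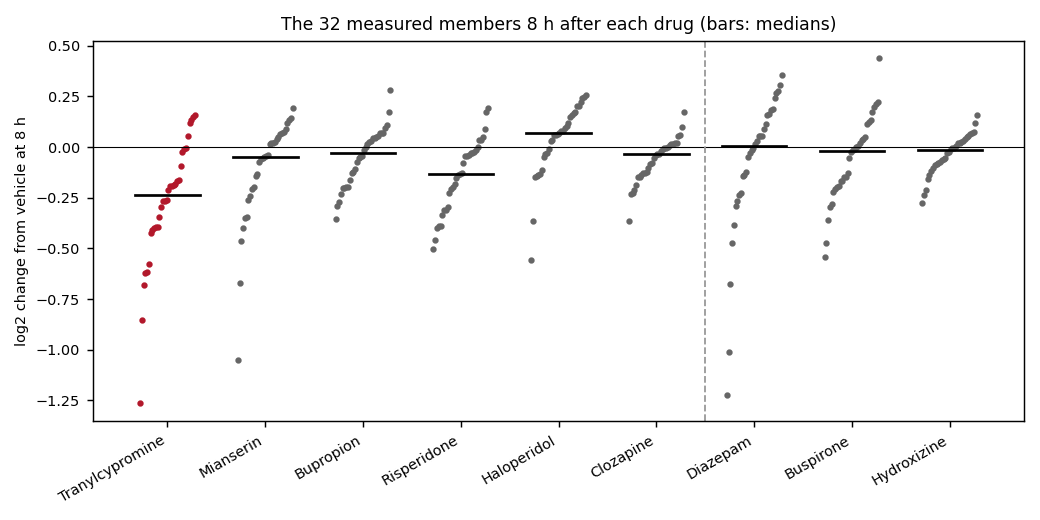
Log2 change from vehicle at 8 h (vertical axis) of the 32 measured members after each of the 9 drugs, each point a gene in rank order and bars the medians; the dashed line parts the chip sets. The median is -0.24 after tranylcypromine (red) and -0.13 after risperidone, and lies between -0.05 and 0.07 after the other 7 drugs.

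After the other 6 drugs no member was called over the 4 times. Among all probes, bupropion called 0%, haloperidol 0.13%, clozapine 0.0508%, diazepam 0.00221%, buspirone 0.00442% and hydroxizine 0%, so there were few or no calls of any gene against which to read this. By limma's unadjusted p under 0.05 the members counted 1 after bupropion, 2 after haloperidol, 1 after clozapine, 9 after diazepam, 0 after buspirone and 3 after hydroxizine. All probes under that p were 4.43%, 6.82%, 4.45%, 13.1%, 3.96% and 4.92% in this order, and the 9 members after diazepam were 28.1%. In chip set 2 the members could also be measured less well. All 6 arrays of 1 chip, from 6 groups (saline at 1 and 4 h, diazepam at 2 and 8 h, buspirone at 4 h and hydroxizine at 2 h), had *Mal* between 8.82 and 9.33, while the other 42 arrays had 11.13 to 13.18. On that chip *Olig1* differed from the other arrays by -1.70 on average and *Lpar1* by -1.15, while *Nkx6-2* differed by 0.57. The spread of *Mal* within groups was 1.00 in chip set 2 and 0.29 in chip set 1. Changes of *Mal* after diazepam swung accordingly between -1.23 at 8 h and 1.16 at 4 h (SE 0.72). Without the 6 arrays of that chip, a setting chosen after the data were seen, 0 members were again called after each of the 3 anxiolytics.

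Undrugged mice showed how far the members move without a drug. Over all members and times, changes ran from -0.36 to 0.39 for naive against vehicle and from -0.41 to 0.73 for Tween 80 against saline. Against 1 h, later times changed by -0.38 to 0.56 in vehicle mice of chip set 1 and by -0.38 to 0.42 in naive mice. In saline mice of chip set 2 they changed by -0.55 to 1.25. Naive mice differed from vehicle mice in 0% of all probes, with 1 member under an unadjusted p of 0.05, and Tween 80 from saline in 0%, again with 1 member. The member was *Tmem63a* in the first comparison and *Mal* in the second. A single member is 3.12% of the 32, near the shares of all probes under that p, 3.28% and 5.06%. Over the 4 times, 0.583% of probes changed in vehicle mice of chip set 1, 0.0199% in naive mice and 0.011% in saline mice of chip set 2, and no member was called in any of these; 8 (25%), 0 and 4 (12.5%) members were under an unadjusted p of 0.05, beside 9.64%, 4.22% and 8.64% of all probes. The nearest was *Ugt8a* in vehicle mice (adjusted p = 0.0881).

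Other genes of the lineage were listed apart from the members. Of 29 further oligodendrocyte genes measured, 2 (6.9%, beside 1.59% of all probes) were called over the 4 times after tranylcypromine, both lower at their largest change. *Ppp1r14a*, an inhibitor of myosin phosphatase, changed by -1.01 at 8 h (SE 0.17; adjusted p = 0.000694) and *Tppp*, which polymerizes tubulin, by -0.49 (SE 0.13; adjusted p = 0.0462). The median of this list was -0.23 at 8 h. By the test of 8 h alone, 4 of these 29 genes were called lower after tranylcypromine and 0 higher. At that time 6 of 32 members and 0.448% of all probes were called lower. After mianserin *Tppp* was the 1 gene called, at -0.56 at 8 h, and after risperidone the 1 was *Hapln2*, a link protein of the node of Ranvier, at 0.69 at 4 h. A single gene is 3.45% of the list, beside 3.26% of all probes after mianserin and 1.22% after risperidone. Among 22 regulators of the lineage, 2 (9.09%) were lower after tranylcypromine, *Hes5* and *Id4*, and 3 (13.6%) were called after mianserin. The test of 8 h alone called 3 of the 22 lower after tranylcypromine. *Hes5*, a target of Notch signalling that holds precursors undifferentiated, changed by -0.68, -0.66, -0.34 and -1.15 at 1, 2, 4 and 8 h after tranylcypromine (SE 0.16; adjusted p = 1.99e-09 over the 4 times), and by -1.27 with mianserin and -0.70 with risperidone at 2 h, called over the 4 times after each. *Id4*, an inhibitor of basic helix-loop-helix factors, changed by -0.68 at 8 h after tranylcypromine and, with mianserin, by -0.76 at 4 h. *Id2*, of the same family, was higher after mianserin, by 0.54 at 1 h. *Hes5* and *Id4* are also expressed by astrocytes.

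Markers of other cell types moved beside the members. Of 12 microglial genes measured, 3 (25%, beside 1.59% of all probes) were called over the 4 times after tranylcypromine, all with their largest change downward: *P2ry12* (-1.21 at 8 h), *Cx3cr1* (-0.67 at 4 h) and *Trem2* (-0.52 at 8 h). Earlier, at 1 and 2 h, *P2ry12* had changes of 0.46 and 0.39 (SE 0.29). The test of 8 h alone called 2 of the 12 microglial genes lower, beside 0.448% of all probes. It called 0 astrocyte, endothelial or medium spiny neuron genes lower. The summed linear signal of the microglial list at 8 h ran from 14501 to 16418 units in the tranylcypromine arrays and from 14478 to 16046 in the mianserin arrays, against 17819 to 19307 in saline and 18056 to 21328 in Tween 80 arrays. Arrays give no level of 0, and an absent transcript reads near background. *P2ry12* was called after mianserin too (-1.26 at 8 h). The astrocyte list, at 131823 to 152409 after tranylcypromine, overlapped the saline range of 125762 to 152501 and, at its lower end, the Tween 80 range of 126105 to 134340. Its median change at 8 h was 0.15, and *Gjb6*, connexin 30, was higher by 0.56 at 8 h. Of the 12 endothelial genes, *Tek* was lower (-0.85 at 4 h) and *Esam* higher (0.48 at 8 h), and of 11 genes of medium spiny neurons *Pdyn* was higher (0.74 at 8 h). After mianserin the astrocyte gene *Sox9* was called, at -0.70 at 4 h, and *Penk*, of medium spiny neurons, at 0.58 at 2 h, and after risperidone *Tek*, at -0.59 at 4 h. Endothelial calls after tranylcypromine were 16.7% of their list. A single gene is 8.33% of the microglial, astrocyte or endothelial list and 9.09% of the neuron list. All probes called were 1.59%, 3.26% and 1.22% after tranylcypromine, mianserin and risperidone. Of 7 cortical and 8 choroid plexus genes, 0 were called after these 3 drugs, with 0 under an unadjusted p of 0.05. The part of other cells in the fall of *Opalin* and *Pllp* was not tested.

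After group means were removed, the 496 pairs of members had a median Pearson r of 0.07 (Spearman 0.07) over the arrays of chip set 1 and of 0.08 over the 48 arrays of chip set 2. Medians of other lists in chip set 1 were 0.04 for astrocyte, 0.06 for microglial, 0.02 for endothelial and 0.11 for the further oligodendrocyte genes. They were -0.0045 for the lineage regulators, 0.15 for cortical excitatory neuron genes and 0.23 for medium spiny neuron genes. Genes of the choroid plexus, a tissue of the neighbouring ventricle, had 0.73. The pair nearest together was *Mal* and *Lpar1* (r = 0.76 in chip set 1 and 0.95 in chip set 2), and the farthest apart was *Fa2h* and *Nkx6-2* (r = -0.72), which had 0.24 in chip set 2. These arrays share chips, so the values are a description.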

How the data were processed

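Striatal RNA was measured on 156 Illumina MouseWG-6 v2 arrays, 52 groups of 3. The authors deposited a table of log2 probe signals before normalization, made with BeadStudio, and a table of log2 signals after quantile normalization; the first was used and the second is an alternative. Of 45281 probes, 2 with a missing value were dropped and the rest were quantile normalized over all arrays with limma 3.58.1 (R 4.3.3). Array annotation gave 1 symbol for 34883 probes, several for 18 and none for 10378. A gene was read from its brightest probe. A linear model with 1 mean per group was fitted in each chip set, with limma's empirical Bayes trended with intensity, a moderated F test over the 4 times and moderated tests of single times, and Benjamini-Hochberg adjustment over all probes at 0.05. Members were grouped by role. Every member is accounted for; single-array values are given for members called over the 4 times in any drug or at 1 time, and other genes are named from the lists if called. Members and lists were chosen with earlier results of these data known. In data simulated for tranylcypromine at 8 h (45279 probes, no chip effect), 74% of probes changed by 0.5 and 99% of those changed by 1 were called at 8 h; for diazepam at 8 h these were 29% and 92%. The number of arrays limits the precision. Nothing states that arrays of a group came from separate cages or days, and p-values measure the spread between arrays.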

Additional observations from a re-analysis of the deposited data

Results flagged for a closer look

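Changes of some members differed between drugs or times by a direct test of the difference. At 8 h *Opalin* was lower after tranylcypromine than after mianserin (-1.34), bupropion (-1.55), haloperidol (-1.43) and clozapine (-1.28), and *Pllp* was lower in the same pairs (-0.90, -0.88, -0.80 and -0.71). *Qdpr* was lower after tranylcypromine than after bupropion (-0.52, adjusted p = 0.0426 by limma) and haloperidol (-0.63), and *Enpp6* likewise (-0.60 and -0.72). After mianserin at 8 h *Ugt8a* was lower than after bupropion (-0.66), haloperidol (-0.93) and clozapine (-0.69), and *Car2* was lower than after haloperidol (-0.68). After mianserin at 4 h *Aspa* was lower than after bupropion (-0.69) and haloperidol (-0.66), and *Sox10* likewise (-0.62 and -0.58). The changes after tranylcypromine were unequal over the 4 times for *Opalin* (adjusted p = 0.00208) and *Pllp* (adjusted p = 0.00238).

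In 3 of 48 sets of 6 vehicle arrays tested, a single array stood far from the rest, a share that chance gives in about 5%. For *Pllp* at 4 h the highest array was 10.82, with the next at 10.61. For *Fa2h* the lowest array was 11.62 at 1 h (next 12.36) and 11.89 at 2 h (next 12.50).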

How the results depend on the processing

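The authors' normalized table, 50 units added before log2 and a fit with no intensity trend kept all 21 tests of named changes on their side of the threshold. In these settings each count of called members was equal to that reported or within a ratio of 1.5 of it. Below, not every move within that ratio is given. Other choices moved counts of called members over the 4 times. With vehicle arrays of both chip sets, each drug was set partly against the other chip set, so differences between the chip sets enter the change. The number of all probes called was then also highest for each drug, as given in the next paragraph. The counts of called members in that setting were 8 (tranylcypromine), 7 (mianserin), 7 (risperidone), 4 (bupropion), 4 (haloperidol), 19 (diazepam), 14 (buspirone) and 16 (hydroxizine), with 3 lower at 8 h after tranylcypromine. With 1 model and 1 spread for all arrays they were 3 (tranylcypromine, and 3 at 8 h), 0 (risperidone) and 7 (diazepam). With each array centred on its median they were 2 (tranylcypromine), 0 (risperidone) and 1 (haloperidol), and 0, 1 and 0 lower at 2, 4 and 8 h after mianserin. The second-brightest probe gave 3 (tranylcypromine), 2 (mianserin, with 0 at 2 h and 1 at 8 h) and 0 (risperidone). Each drug's own vehicle alone gave 3 (tranylcypromine), 0 (risperidone), and 0 at 2 h and 1 at 8 h after mianserin. The chip as a fixed block gave 3 (tranylcypromine, and 3 at 8 h) and 4 (risperidone), the chip as a random block 3 (risperidone), and probes above the median 2 (risperidone). Replicate numbers were not linked to a shared animal or day, and arrays of one number did not deviate together (mean correlation -0.013, against -0.011 between numbers). The replicate block gave 2 for risperidone, 6 for tranylcypromine and 4 for mianserin and lost the call of *Tmem63a* alone among 21 named changes.

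Over these alternatives the probes called over the 4 times ranged from 277 to 2515 for tranylcypromine (719 as reported), 660 to 3888 for mianserin (1474), 193 to 2520 for risperidone (554), 32 to 1490 for haloperidol (59), 8 to 352 for clozapine (23), 0 to 3026 for bupropion (0), 0 to 15105 for diazepam (1), 0 to 12158 for buspirone (2) and 0 to 12200 for hydroxizine (0), each highest with vehicle arrays of both chip sets.

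Signs turned with the second-brightest probe for *Mal* after tranylcypromine (0.14 at 8 h), *Ugt8a* after mianserin (0.026 at 8 h) and *Aspa* after risperidone (0.054 at 2 h), and for *Mal* (0.013) with vehicle arrays of both chip sets. The mean *Mal* signal of vehicle arrays was 13.61 in chip set 1 and 11.47 in chip set 2, and vehicle of both chip sets mixes these levels. The causes were not tested.

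Leaving out 1 replicate at a time gave 1 to 5 called members after tranylcypromine, 2 to 4 after mianserin and 0 to 1 after risperidone, and 0 after the other drugs. At single times it gave 3 to 6 lower at 8 h after tranylcypromine, and 0 to 1, 2 to 2 and 0 to 3 at 2, 4 and 8 h after mianserin. Unequal changes after tranylcypromine ranged from 0 to 2. In chip set 2, with 3 vehicle arrays a time, a change of 0.5 simulated for diazepam at 8 h was called for 29% of probes.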
